A study of Rattus norvegicus with 20 samples.

Results

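The transcripts of 10 listed antioxidant enzymes (Sod1, Sod2, Sod3, Cat, Gpx1, Gpx3, Gpx4, Prdx1, Prdx3 and Txnrd1) were followed in rat adipose tissue under graded calorie restriction (CR). Members were chosen by gene symbol in the annotation of the array. Of the 10 genes, 9 had a probe set of their own, among 10411 named genes in the series. They were read by 10 of 15866 probe sets, since Txnrd1 had 2, of which the brighter one on average was used for the gene. The single Prdx1 probe set is shared with a second gene symbol and was not read as Prdx1. All 10 remaining probe sets passed the filter on low signals.

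The tissue was visceral white fat of male Wistar rats, an outbred strain, and all groups ate the same powdered purified diet. Rats were 6 weeks old at the start and received 5%, 10%, 20% or 30% less food than control rats, which were offered the full recorded intake, for 1 month or for 1 week, and every rat was fasted for 16 h before sampling. The 10 groups were each measured as 1 RNA pool of 5 rats, whose labelled product was hybridised to 2 Affymetrix chips. Chips of one pool are thus technical repeats, the pool is the unit of comparison, and the spread among rats of a group was not measured.

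Superoxide dismutases turn superoxide into hydrogen peroxide, SOD1 with copper and zinc in the cytosol, SOD2 with manganese in the mitochondrial matrix and SOD3 outside the cell. Hydrogen peroxide is then removed by catalase in peroxisomes, by glutathione peroxidases, which use glutathione, and by peroxiredoxins, which draw on thioredoxin that thioredoxin reductase keeps reduced with NADPH. Among the listed enzymes GPX1, GPX3, GPX4 and TXNRD1 are selenoproteins. In fat, peroxide is both a by-product of burning and storing fuel and a signal in the response to insulin.

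The transcription factor NRF2 switches on many genes of this kind through the antioxidant response element, and the core of that element, TGACNNNGC, was searched on both strands in RefSeq promoter windows of the GRCr8 assembly (250 bases before to 50 after a start site). The core or its other-strand form GCNNNGTCA stood in 12.1% of 33469 windows. Of the listed enzymes 9 had a window (12 windows in all, Sod3 was not among them), and 3 held a match, each in 1 window. Capitals mark the match, and each line is written 5′ to 3′ along the gene.
Sod2 (chr1:50050185-50050213, minus strand, 35 bases before the start): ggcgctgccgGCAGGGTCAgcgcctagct
Prdx1 (chr5:135383761-135383789, plus strand, 135 bases before the start): cagggaaagcGCTGAGTCAtaccccgccg
Txnrd1 (chr7:22755964-22755992, minus strand, 78 bases before the start in the second of its windows): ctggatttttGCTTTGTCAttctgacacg
A match of these letters is a description of sequence and not a binding site. Prdx1 has no value in these data and Sod3 has no window, so the matches were not set against the transcript values. A part of NRF2 in those values was not tested.

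Over both durations 4 enzymes rose with the level of restriction and 1 fell, of 9 measured. Sod3 and Gpx3, the secreted pair, mitochondrial Prdx3 and cytosolic Sod1 rose, and Gpx1, the main cytosolic glutathione peroxidase, fell. The measure was the change in log2 signal for each 10% of restriction (the dose slope), fitted over the 10 pools with limma, two-sided, and adjusted by the Benjamini-Hochberg method over all 9520 probe sets tested. By the same test 9.4% of all probe sets were called, 5.71% higher and 3.69% lower. The median slope of the 9 enzymes was 0.13, against −0.011 over all probe sets tested. Over all tested probe sets the 2 chips gave a pool mean a median technical SD of 0.12 on the log2 scale, and pools scattered around the slopes fitted within each duration with a median SD of 0.18. For the 9 enzymes the technical SD ran from 0.046 (Gpx4) to 0.14 (Txnrd1). Their scatter around the slopes ran from 0.052 (Sod2) to 0.17 (Cat). Only Sod3 passed when the control pool of 1 month, the control pool of 1 week or the 30% CR pool of 1 week was left out. Over all probe sets 121, 174 and 84 were then called higher and 39, 81 and 26 lower, against 544 and 351 in the main fit.

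Signals of other cell types moved with restriction as well, and in bulk tissue fewer cells of a type and less RNA per cell cannot be told apart. The tissue label was borne out by the 7 measured of 10 adipocyte markers, whose mean log2 signal was 10.3 to 10.6 in the 8 restricted pools and 9.97 and 10.1 in the 2 control pools. Macrophage markers (11 of 14 measured) stood at 7.41 to 7.85 in restricted pools, below 7.94 and 8.47 in control pools. Lymphocyte markers (13 of 15 measured) ranged between 3.26 and 6.97 in restricted pools, against 6.99 and 7.06 in control pools. Genes of the exocrine pancreas (14 of 16 measured), a neighbour of visceral fat, reached 6.53 in the 30% CR pool and 12.2 in the control pool of 1 week, and lay at 2.47 to 2.78 elsewhere. Erythroid markers (3 of 5 measured), of interest because red cells are rich in catalase and GPX1, ranged between 7.65 and 8.15. Without the 2 pools with pancreas signal no enzyme passed (0 of 9, with 7 at an unadjusted limma p under 0.05 and fewer pools in the fit), although the 5 slopes kept their direction. With the lymphocyte score as a covariate only Sod3 passed, and with the macrophage score none did (6 of 9 at an unadjusted p under 0.05). Calls over all probe sets tested fell too, from 544 higher and 351 lower in the main fit. They were 11 and 4 without the 2 pools, 106 and 79 with the lymphocyte score, and 62 and 25 with the macrophage score. The part of adipocyte and erythroid content in the results was not tested.

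**Figure D1:**
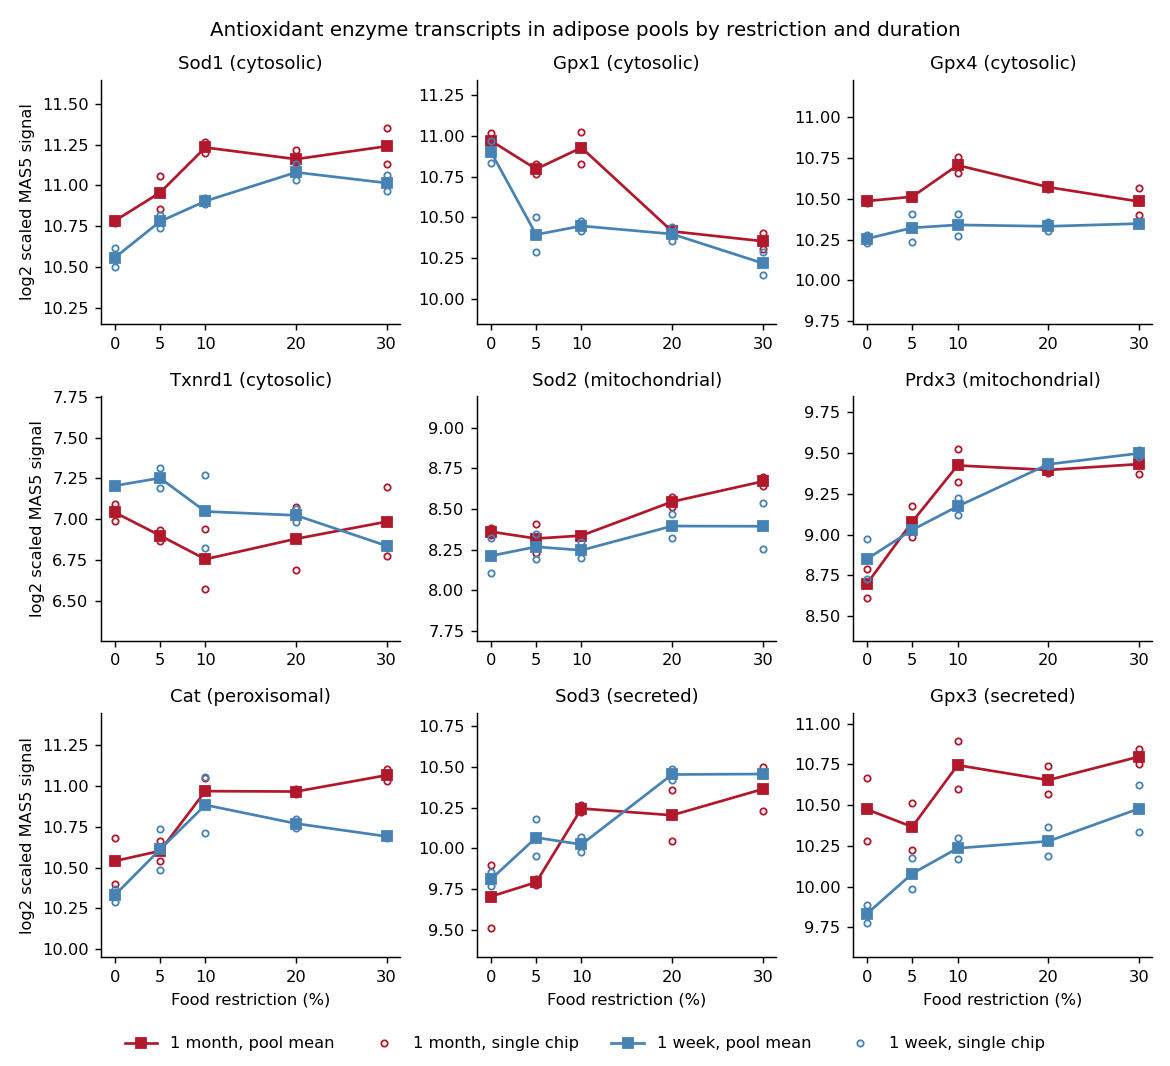
Log2 scaled MAS5 signal (y axis, spanning the same range in every panel but centred on each gene) against food restriction in percent (x axis) for the 9 measured enzymes, with squares for pool means and open circles for single chips, 1 month in red and 1 week in blue. Prdx3 and Sod1 lie above their control pool at every level at both durations, Gpx1 lies below it, and Gpx4 is nearly flat at 1 week.

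The extracellular dismutase Sod3 had the largest dose slope of the 9 enzymes. At 1 month its signal was 835 in the control pool and 887, 1214, 1179.5 and 1318 at 5%, 10%, 20% and 30% CR. At 1 week the control pool had 898 and the restricted pools had 1073, 1042, 1403 and 1405 at the same levels. Every restricted pool lay above its control pool, and in 7 of 8 both chips lay above both control chips, the 5% CR pool of 1 month being the exception. For this and the other enzymes such chip counts are description only. Their share over all probe sets was not counted, and all pools of a duration are set against the same 2 control chips. For every enzyme the folds and chip counts of 1 week use the control pool that carried pancreas signal, as did the 30% CR pool. At 30% CR the signal was 1.58-fold the control at 1 month and 1.57-fold at 1 week. The slope was 0.22 ± 0.038 (SE) log2 per 10% of restriction, with an adjusted p of 0.00898 by limma. Within each duration alone the slopes were 0.21 at 1 month and 0.22 at 1 week.

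Gpx3, the glutathione peroxidase that fat and other tissues release into plasma, was the other secreted enzyme. At 1 month its signal was 1422 in the control pool and 1321, 1717, 1612 and 1779.7 at 5%, 10%, 20% and 30% CR. At 1 week the control pool stood at 913 and the restricted pools at 1083, 1206, 1242 and 1427. At 1 week both chips lay above both control chips at all 4 levels, but chips of neighbouring restricted levels overlapped, and that control pool carried pancreas signal. At 1 month only the 30% CR pool had both chips above both control chips, and the 5% CR pool was lower than its control. The slope was 0.15 ± 0.035 (limma adjusted p = 0.0236).

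Prdx3, the peroxiredoxin of the mitochondrial matrix, had the highest fold over its control of any single pool at 1 month. Its signal there was 415 in the control pool and 541, 687, 674 and 691 at 5%, 10%, 20% and 30% CR, which is 1.65-, 1.62- and 1.66-fold the control from 10% CR upward. At 1 week it was 461 in the control pool and 522, 577, 690.3 and 723 at the same levels, a stepwise series. Its first and last pools, the control and 30% CR, are the 2 with pancreas signal. In all 8 restricted pools both chips lay above both control chips. The slope was 0.21 ± 0.043 (limma adjusted p = 0.0150), and the 8 restricted pools together were 0.53 ± 0.13 log2 higher than the 2 control pools (adjusted p = 0.0407).

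Sod1, the cytosolic copper and zinc dismutase, rose by less. At 1 month the control pool had a signal of 1762 and the pools at 5%, 10%, 20% and 30% CR had 1987, 2407, 2291 and 2420.0. At 1 week the control pool had 1506 and the restricted pools 1757, 1916, 2166 and 2069.7. Both chips of every restricted pool lay above both control chips, yet no pool reached 1.5-fold, the highest being 1.44-fold at 20% CR for 1 week. Its slope was 0.14 ± 0.036 (limma adjusted p = 0.0333), and restricted pools were 0.38 ± 0.097 log2 higher than control pools (adjusted p = 0.0458). The call on the slope was lost in 14 of 24 alternatives, among them quantile normalization, no filter and no intensity trend, with adjusted p between 0.00259 and 0.229 over all of them.

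Gpx1, which clears hydrogen peroxide in the cytosol and in part in mitochondria, was the one enzyme that fell. At 1 month its signal was 2007 in the control pool and 1779, 1949, 1365 and 1309 at 5%, 10%, 20% and 30% CR. At 1 week it was 1916 in the control pool and 1346, 1396, 1349 and 1192 at those levels. At 1 month the 5% and 10% CR pools stood at 0.886- and 0.971-fold of the control. The drop there lay between 10% and 20% CR. At 1 week the 5% CR pool stood at 0.703-fold, but the control and 30% CR pools of that duration are the 2 with pancreas signal. The pools between them were level, at 1346, 1396 and 1349. The slope at 1 week ran between −0.23 and −0.0050 over the 24 alternatives. In 7 of 8 restricted pools both chips were below both control chips. Over both durations the slope was −0.19 ± 0.041 (limma adjusted p = 0.0184). With chips centred on their median it was −0.15 and no longer passed (adjusted p = 0.0990).

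The other 4 enzymes did not pass the test. Cat, catalase, had signals of 1489.5, 1555, 2005, 2002 and 2145 at 1 month and of 1288, 1565, 1891, 1747 and 1654 at 1 week, in each case in the control pool and at 5%, 10%, 20% and 30% CR. All 8 restricted pools lay above their control pool, most of them clear of its chips (7 of 8), and the 1 week series peaked at 10% CR. Its slope of 0.13 ± 0.045 had an adjusted p of 0.0798, and the restricted pools were 0.38 ± 0.11 log2 above control pools (adjusted p = 0.0644, limma). Sod2, the mitochondrial manganese dismutase, had signals of 329 in the control pool, 319 and 323 at 5% and 10% CR and 373 and 407 at 20% and 30% CR for 1 month. At 1 week it was 297 in the control pool and 308, 304, 337 and 336 at the 4 levels. The slope of 0.093 ± 0.028 had a limma adjusted p of 0.0583, and at 1 month the 5% and 10% CR pools lay below their control pool, while all 4 restricted pools of 1 week lay above theirs.

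Gpx4, which reduces lipid peroxides within membranes, varied least with the dose. Its signals at 1 month were 1435 in the control pool and 1461, 1671, 1522 and 1432 at 5%, 10%, 20% and 30% CR. The 1 week pools stood between 1223, in the control, and 1304, at 30% CR. Its slope was 0.0086 ± 0.028 (adjusted p = 0.872), with a 95% interval of −0.053 to 0.071, and took the other sign with quantile normalization (−0.022). Txnrd1, the cytosolic thioredoxin reductase, had signals of 132 in the control pool and 119, 108, 118 and 127 at 5%, 10%, 20% and 30% CR for 1 month. At 1 week they were 148 in the control pool and 152, 132, 130.1 and 114. The 2 probe sets of Txnrd1 had slopes of −0.065 ± 0.040 (adjusted p = 0.291) and −0.084 ± 0.035 (adjusted p = 0.136), and neither passed with limma.

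**Figure D2:**
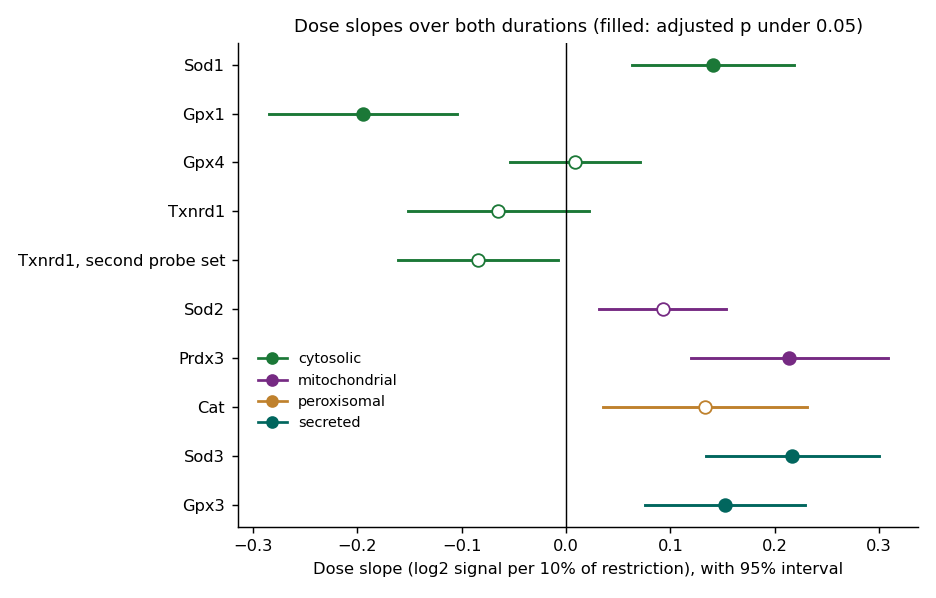
Dose slope over both durations (x axis, log2 signal per 10% of restriction) with its 95% interval from limma for each measured enzyme, coloured by compartment, with filled points for an adjusted p under 0.05. The 5 filled points are Sod3, Prdx3, Gpx3 and Sod1 to the right of 0 and Gpx1 to the left, and the interval of Gpx4 spans 0.

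By compartment, both secreted enzymes rose (median slope 0.18, Gpx3 0.15 and Sod3 0.22). Of the mitochondrial pair Prdx3 rose and Sod2 did not pass (median 0.15, 0.093 to 0.21). The 4 cytosolic enzymes were the most spread, with Sod1 higher, Gpx1 lower and Gpx4 and Txnrd1 not past the threshold (median −0.028, −0.19 to 0.14). Peroxisomal Cat had 0.13. These groups hold 1 to 4 genes each, and no test of one compartment against another was run. Within the glutathione peroxidases Gpx3 rose and Gpx1 fell, and within the dismutases Sod3 and Sod1 rose while Sod2 did not pass.

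To set the organelle enzymes beside their organelles, listed genes of mitochondria and peroxisomes were read in the same fit. Of 25 mitochondrial genes 9 rose and 0 fell (25 slopes above 0), with a median slope of 0.096, led by Ndufs1 of respiratory complex I (0.19 ± 0.031), Sdha (0.17 ± 0.039) and Sdhb (0.17 ± 0.039) of complex II and Uqcrc1 of complex III (0.16 ± 0.038). The slope of Prdx3 was above all 25 of them, whose highest was 0.20, while that of Sod2 was above 10 of 25. Of 16 peroxisomal genes 6 rose and 0 fell, with a median of 0.10. They were led by Ehhadh, the bifunctional enzyme of peroxisomal beta-oxidation (0.61 ± 0.11), the reductase Decr2 (0.29 ± 0.061), the dienoyl-CoA isomerase Ech1 (0.27 ± 0.066) and Phyh, which starts the breakdown of phytanic acid (0.27 ± 0.053). Over all probe sets 5.71% were called higher, and without the 2 pools with pancreas signal 0 of 25 and 0 of 16 were called, beside 11 higher in all, with medians of 0.10 and 0.12. Cat lay above 9 of these 16 genes. Gpx1 lay below every gene of both lists.

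At the level of single pools, an enzyme was counted as changed where both chips of the pool lay on one side of both control chips and the means were 1.5-fold apart or more. With 1 pool against 1 pool this is a description without a test. Of 72 pairs of enzyme and pool 10 were changed, and 17 with chips centred on their median, a setting for which no share over all probe sets is given. Prdx3 accounted for 4 (10%, 20% and 30% CR at 1 month and 30% CR at 1 week), Sod3 for 3 (30% CR at 1 month, 20% and 30% CR at 1 week), Gpx1 for 2 (30% CR at both durations, 0.652-fold at 1 month and 0.622-fold at 1 week) and Gpx3 for 1 (30% CR at 1 week, 1.56-fold). None lay at 5% CR, where the shares over all probe sets were lowest as well. By the same rule, of all probe sets tested 2.44%, 6.22%, 6.23% and 5.33% were higher and 3.25%, 13.4%, 10.1% and 7.84% lower at 5%, 10%, 20% and 30% CR for 1 month. At those levels for 1 week 4.46%, 7.14%, 7.04% and 9.3% were higher and 4.23%, 7.06%, 8.61% and 11.6% lower. In direction alone, 4 enzymes (Sod1, Sod3, Cat and Prdx3) were above the control in all 8 restricted pools and Gpx1 was below in all 8, where 15.1% of all probe sets were always above and 14.8% always below. Pools of one duration share a control pool, so these counts are not independent of each other.

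**Figure D3:**
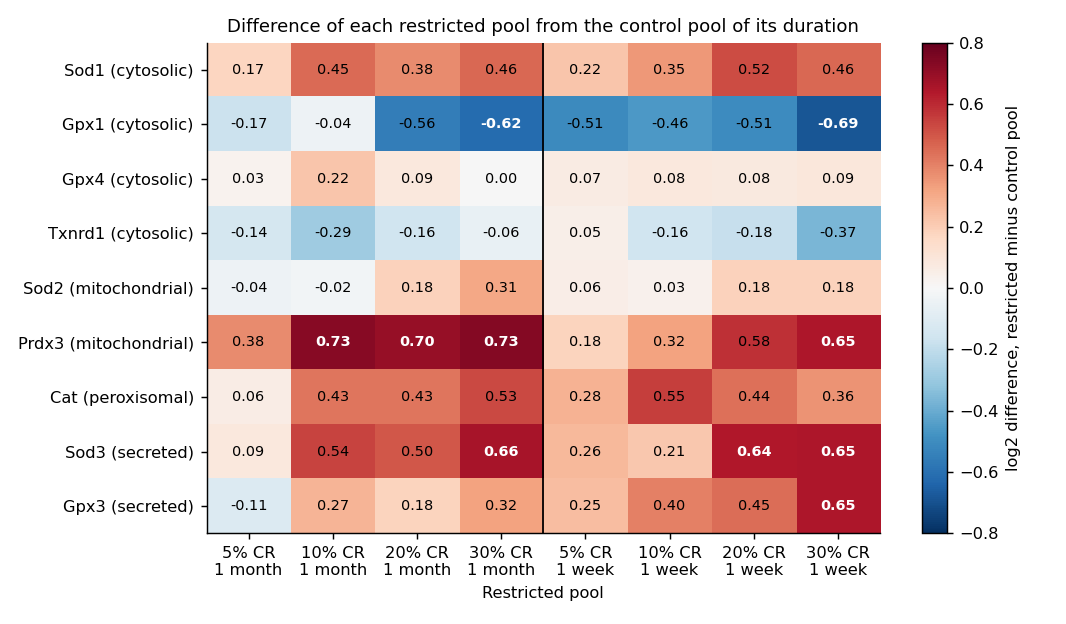
Log2 difference of each restricted pool (columns, 5% to 30% CR at 1 month left of the line and at 1 week right of it) from the control pool of its duration for each enzyme (rows), red for higher and blue for lower, with the value in each cell and bold white type for the 10 changed pairs. The Prdx3 row reaches 0.73 at 1 month, and the Gpx1 row is blue throughout, down to −0.69 at 30% CR for 1 week.

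Each duration by itself gave no call. At 1 month 0 of 9 enzymes passed (7 at an unadjusted p under 0.05), where 0.126% of all probe sets did (0.0945% higher, 0.0315% lower), and at 1 week 0 of 9 passed (6 unadjusted), where 0.294% did (0.221% higher, 0.0735% lower). The slope of Prdx3 was 0.21 at 1 month and 0.22 at 1 week, that of Sod1 0.13 at 1 month and 0.15 at 1 week, that of Gpx1 −0.22 at 1 month and −0.17 at 1 week, and that of Gpx3 0.12 at 1 month and 0.19 at 1 week. The difference of the slopes was itself tested, and 0 of 9 enzymes and 0% of all probe sets passed (limma, with 0 enzymes at an unadjusted p under 0.05). The differences, 1 month minus 1 week, ran between −0.071 for Gpx3 and 0.13 for Txnrd1, with an adjusted p of 0.999 for each.

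In the simple contrast of any restriction with control feeding, only Prdx3 and Sod1 of the 9 enzymes passed, both higher, where 5.93% of all probe sets were called (4.34% higher, 1.6% lower). Sod3 was 0.44 ± 0.15 higher without passing (adjusted p = 0.0920), and Gpx1 was 0.44 ± 0.14 lower (adjusted p = 0.0742). The 2 calls rest on 2 control pools: leaving out either control pool gave 0 calls, as did leaving out any of 5 of the restricted pools. Without the 10% CR pool of 1 month Gpx1 alone passed, while without the 5% CR pool of 1 month 6 enzymes passed. Calls over all probe sets moved as well, from 413 higher and 152 lower in the main fit. They were 18 and 9 without the control pool of 1 month, and 5 and 1 without that of 1 week. Without the 10% CR pool of 1 month they were 240 and 64, and without the 5% CR pool of 1 month 1012 and 966. With the macrophage score as a covariate no enzyme passed (2 at an unadjusted limma p under 0.05). Over all probe sets 0 were then called higher and 0 lower, so the loss of calls was not particular to Prdx3 and Sod1. The macrophage score was lower in every restricted pool than in either control pool, so this fit can hardly separate restriction from the score.

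Gpx3 also differed between the durations. Across feeding levels Gpx3 was 0.43 ± 0.075 log2 higher at 1 month than at 1 week (limma adjusted p = 0.0136), a 1.34-fold difference, and even the control pools differed, at 1422 against 913. It was the one enzyme called of 9, where 3.1% of all probe sets were (0.84% higher, 2.26% lower). Gpx4 was 0.23 ± 0.061 log2 higher and did not pass (adjusted p = 0.0672). Chips of different durations and replicate numbers had been scaled to different levels before deposit, so this contrast rests on the rescaling. On the signals as deposited both Gpx3 and Gpx4 passed. With chips centred on their median, and without the 2 pools with pancreas signal, neither did. All 7 fibroblast markers measured were lower in the same contrast (median −0.64, 4 of them called), with mean log2 signals of 9.41 to 9.80 in 1 month pools and 10.1 to 10.5 in 1 week pools, and their part in the result was not tested. Age and duration cannot be told apart, since rats of the 1 month groups were older when sampled.

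Partners of these enzymes in the wider thiol system were read in the same fit, as dose slopes in log2 per 10% of restriction. The median over all probe sets was −0.011, and 9.4% of them were called (5.71% higher, 3.69% lower). Without the 2 pools with pancreas signal no gene of these redox lists was called. Among 14 tested peroxiredoxins, thioredoxins, glutaredoxins and their partners, 2 rose and 1 fell (median 0.072). Prdx6, which also repairs peroxidised phospholipids, rose by 0.24 ± 0.041, and Txnip, the protein that binds and restrains thioredoxin, rose by 0.19 ± 0.037. Glrx, the cytosolic glutaredoxin, had a slope of −0.23 ± 0.056 (adjusted p = 0.0309). In glutathione synthesis and reduction 3 of 10 rose and 0 fell (median 0.017). These were Gss, glutathione synthetase (0.47 ± 0.065), Gsr, which regenerates glutathione from its oxidised form (0.31 ± 0.086), and Gclm, the modifier subunit of the rate-limiting ligase (0.22 ± 0.055). The catalytic subunit of that ligase, Gclc, had a slope of 0.011 ± 0.052 and did not pass.

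For the lists that follow, the same fit called 5.71% of all probe sets higher and 3.69% lower. Of 8 genes that supply NADPH, 2 rose and 0 fell (median 0.12). Both, Tkt (0.20 ± 0.031) and Taldo1 (0.19 ± 0.036), act in the non-oxidative branch of the pentose phosphate pathway, which does not itself make NADPH. Idh1, the cytosolic isocitrate dehydrogenase that does make it, is named after its values were seen: its slope of 0.21 ± 0.066 did not pass (adjusted p = 0.0657), and it was 0.75 ± 0.11 log2 higher in restricted than in control pools (limma adjusted p = 0.00625). The list of Nrf2 and its targets had 2 risers of 11, Cbr1, a carbonyl reductase (0.43 ± 0.073), and Gclm, which is also a glutathione gene, and no gene that fell (median 0.029). Hmox1, a classical target that degrades haem, is named here after its values were seen: its slope was −0.32 ± 0.093 (adjusted p = 0.0508), and it was 0.99 ± 0.21 log2 lower in restricted than in control pools (limma adjusted p = 0.0242). Macrophages express Hmox1, and the macrophage score was lower in all 8 restricted pools than in the control pools. The part of macrophage content in the Hmox1 values was not tested. Nfe2l2, the gene of NRF2 itself, did not pass (0.17 ± 0.056, adjusted p = 0.0795).

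Among 12 genes of metal and selenium handling 1 fell and 0 rose (median −0.056), against 9.4% of all probe sets called in either direction. It was Atox1, a copper chaperone (−0.21 ± 0.036, limma adjusted p = 0.00802), while Ccs, the chaperone that loads copper into SOD1, had 0.060 ± 0.047 and did not pass. Of 8 tested enzymes and subunits that make superoxide or hydrogen peroxide 3 rose and 1 fell (median 0.10). Monoamine oxidase Maob (0.26 ± 0.044), xanthine dehydrogenase Xdh (0.24 ± 0.040) and aldehyde oxidase Aox1 (0.21 ± 0.045) rose. Cyba, a membrane subunit of the NADPH oxidase that is abundant in phagocytes, had a slope of −0.29 ± 0.066 (limma adjusted p = 0.0227). The macrophage score was lower as well, and its part in the Cyba values was not tested. Of 3 genes that repair oxidised methionine, Msrb1, itself a selenoprotein, rose (0.15 ± 0.039).

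**Figure D4:**
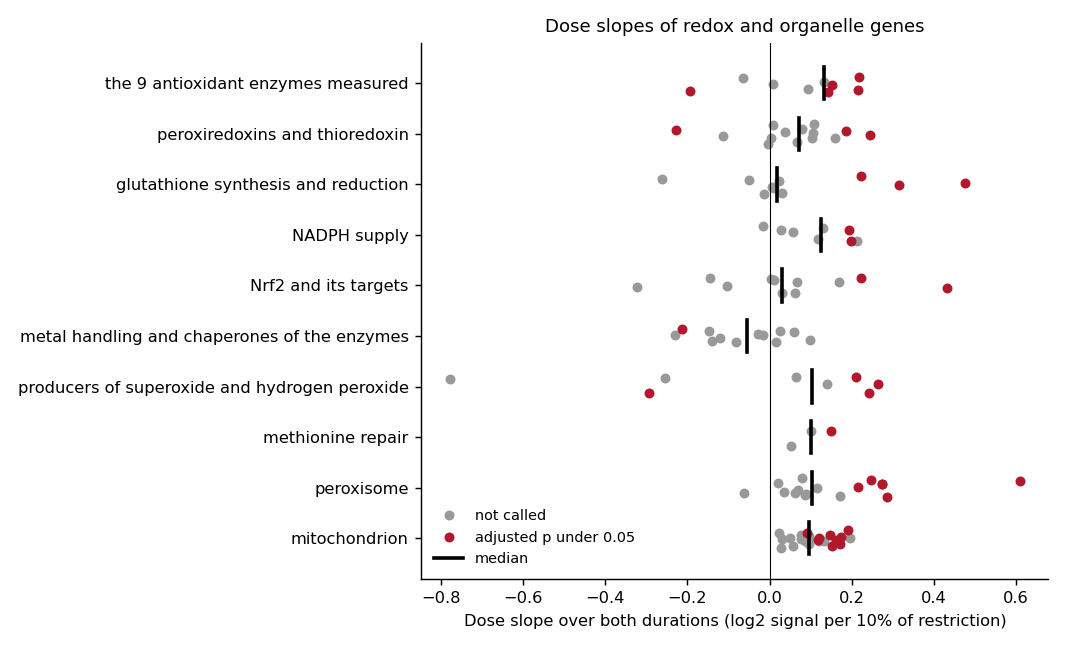
Dose slope over both durations (x axis, log2 signal per 10% of restriction) of each tested gene (points) in the antioxidant enzymes, 7 redox lists and 2 organelle lists (rows), red for a limma adjusted p under 0.05, with a black bar at each median. The mitochondrial points all lie above 0, and each redox list except methionine repair holds points on both sides.

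The genes whose pool means followed Sod3 most closely over the 10 pools, after removal of each duration's mean, were Sfxn1, a mitochondrial serine transporter (Pearson r = 0.984), Timm21, of mitochondrial protein import (r = 0.981), and Selenbp1, a selenium-binding protein (r = 0.980). These are the highest of all genes tested and describe these pools only. The genes of a pool were read on the same chips, and the pools differed in cell type signals. The part of either in these correlations was not tested.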

How the data were processed

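The authors deposited MAS5 signals, linear intensity values of 20 one-colour Affymetrix rat chips (2 per pool, 10 pools), made in the Affymetrix operating software at its default criteria. Trimmed means (trim 0.02) differed between the deposited chip sets (77.7 and 111.7 at 1 week, 98.5 and 98.1 at 1 month), so each chip was rescaled to a trimmed mean of 100, floored at 1 and taken to log2. Of 15923 rows, 57 array controls were left out. Platform annotation gave 12783 probe sets 1 symbol, 312 several and 2771 none, and 12748 were matched to the GRCr8 gene table. The 9520 probe sets whose mean log2 signal reached the 40th percentile were tested on pool means with limma 3.58.1 in R 4.3.3 (lmFit, eBayes with intensity trend), two-sided, threshold 0.05. The number of pools, 1 per group, limits the precision. The p-values measure the scatter of single pools around the fit, which includes any departure from a straight dose line. The script was tested on simulated data.

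Members and lists were chosen with earlier results of these data known. Named genes were the members, up to 4 called genes per list by size of slope, and the 3 genes most like the member of largest moderated t. Gclc, Ccs, Nfe2l2, Idh1 and Hmox1, whose slopes were not called, were named outside this rule. Replicate numbers mark the 2 chips of a pool and their scaling set, so pools are not paired by them. Alternatives covered scaling, filter, floor, trend, probe choice, left-out chips and pools, the replicate block and marker scores as covariates. The macrophage covariate, the rescaled pool counts and the list counts without 2 pools were chosen after seeing the data.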

Additional observations from a re-analysis of the deposited data

How the results depend on the processing

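Over 24 alternatives the slopes of Sod3, Prdx3, Gpx3, Sod1 and Gpx1 kept their direction, while calls did not always hold. The 5 calls on the dose slope became 0 without the 2 pools with pancreas signal, 1 with the lymphocyte score and 0 with the macrophage score, 4 (Sod1 lost) with quantile normalization, no filter or no intensity trend, and between 1 and 7 with a chip set or pool left out: only Sod3 passed without the control or the 30% CR pool of 1 week or the control pool of 1 month, 3 enzymes passed without the 20% CR pool of 1 week and 3 without replicate 2. Fitting all 20 chips with the replicate number as a replicate block gave 7 (Cat and Sod2 added), with 5 at 1 week, 3 at 1 month, 5 for restricted against control and 2 for 1 month against 1 week. Over all probe sets it called 895 higher and 834 lower for the dose slope, against 544 and 351 in the main fit. At 1 week it called 450 and 248 (main fit 21 and 7), and at 1 month 184 and 80 (9 and 3). For restricted against control it called 914 and 781 (413 and 152), and for duration 232 and 327 (80 and 215). These counts take chips of one pool as its repeats and measure technical error in part. Leaving out chips or pools gave 0 to 3 calls at 1 week and 0 to 1 at 1 month, the most without the 10% CR pool of 1 month, and 0 to 1 for duration, with 0 without replicate 2. Without that 10% CR pool, 222 of all probe sets were higher and 98 lower at 1 week, and 67 and 30 at 1 month. The 2 calls of restricted against control pools became 0 with median centring, with no filter, with no intensity trend, without the pancreas pools and with either marker score, and 0 to 6 with chips or pools left out. The call on duration became 2 on deposited signals and with either marker score, and 0 with median centring and without the pancreas pools. The difference of slopes had 0 calls throughout. Changed pairs of enzyme and pool numbered 17 with median centring. Median centring moved the median restricted minus control difference of all probe sets to 0.091, against −0.026, and the share of calls that were higher to 84.9%, against 73.1%, and for the dose slope to 79.7%, against 60.8%. For 1 month against 1 week that share was 66.7% on deposited signals and 27.1% after rescaling. The slope of Gpx4 was −0.022 with quantile normalization, −0.0039 without the pancreas pools, −0.027 with the lymphocyte and −0.018 with the macrophage score, and −0.0011 to 0.031 with chips or pools left out. With the macrophage score the restricted minus control difference was −0.0059 for Gpx4 and 0.080 for Txnrd1. The cause of these changes was not tested. Counts over all probe sets, 895 for the dose slope, ran between 15 (without the pancreas pools) and 1921 (without the 10% CR pool of 1 month). For restricted against control, 565 in the main fit, they ran between 0 (with the macrophage score) and 1978 (without the 5% CR pool of 1 month).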
